A study of Drosophila melanogaster with 8 samples.

Results

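The peaks described here are those of the Bicoid (Bcd) ChIP-seq peak lists that lie on the heterochromatic sequences of the dm3 assembly (2LHet, 2RHet, 3LHet, 3RHet, XHet and YHet) or on its unplaced sequence U. They were chosen by sequence name alone, with the unplaced Uextra sequence left out. There were 297 of 3891 wild-type peaks (7.63%) and 56 of 2650 zelda mutant peaks (2.11%). The series maps Bcd binding in whole Drosophila melanogaster embryos aged 1 to 3 h. It has 8 samples, namely Bcd ChIP and input without antibody from wild-type and from zelda mutant embryos, with 2 replicates a group. The labels do not name the mutant allele or say whether replicates were separate embryo collections. Each genotype has a single deposited peak list without values per replicate, so differences between the genotypes are given without a test.

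Bcd, a homeodomain protein translated from maternal mRNA held at the anterior pole, forms a gradient that activates patterning genes of the head and trunk. Zelda, a zinc finger protein also supplied by the mother, opens early enhancers in the whole embryo and is needed by many of the first zygotic genes. Heterochromatin is the compact part of the genome around centromeres and on the Y chromosome, rich in transposons and satellite repeats and poor in genes. In dm3 the Het sequences collect pieces placed near a chromosome, while U strings together pieces with no known place. Reads from repeats can align to many copies, and the sources used here do not say how such reads were treated. No genome of this build was used here, so peaks are given by position on dm3 without genes, repeats or sequence.

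Depth differed with genotype: 39154546 ChIP tags (sequenced fragment ends at distinct positions) entered the wild-type list and 10060479 the mutant list, a ratio of 3.89. In numbers, lengths and tags per kb of peaks, genotype and depth cannot be told apart. For that reason the chromosome arms (2L, 2R, 3L, 3R, 4 and X) of the same list are set beside most values, and the whole list beside counts of peaks past a limit. Intervals cover counting error only, and look-alike peaks are not independent of each other.

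Het and U peaks were 5.30 times as many in the wild-type list as in the mutant list, while arm peaks were 1.51 times as many and Uextra peaks 1.06 times. U held the most, with 125 wild-type and 24 mutant peaks. The counts were not divided by the length of each sequence, so their order says nothing of peaks per Mb. The sequence 2RHet held 59 and 12, 3LHet 50 and 12, and 3RHet 50 and 4. The sequence 2LHet held 8 wild-type peaks and 0 mutant peaks. XHet held 3 in each list, and YHet 2 and 1. Among the sequences with a mutant peak, the ratio of the counts was highest on 3RHet, at 12.5, and the XHet counts were equal. Few of these peaks were strong. The empirical false discovery rate given by the MACS peak caller (FDR) was at most 5% for 57 wild-type Het and U peaks, or 19.2% (Wilson 95% interval 15.1 to 24.1), where 27.7% of all wild-type peaks and 35.3% of those on the arms met that limit. They were 45 of 172 Het peaks and 12 of 125 U peaks. In the mutant list 2 of 56 met it, 1 on 2RHet and 1 on XHet, where 10.4% of all mutant peaks and 13.2% of those on the arms did. On Uextra 2.87% of wild-type and 3.73% of mutant peaks met it.

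**Figure D1:**
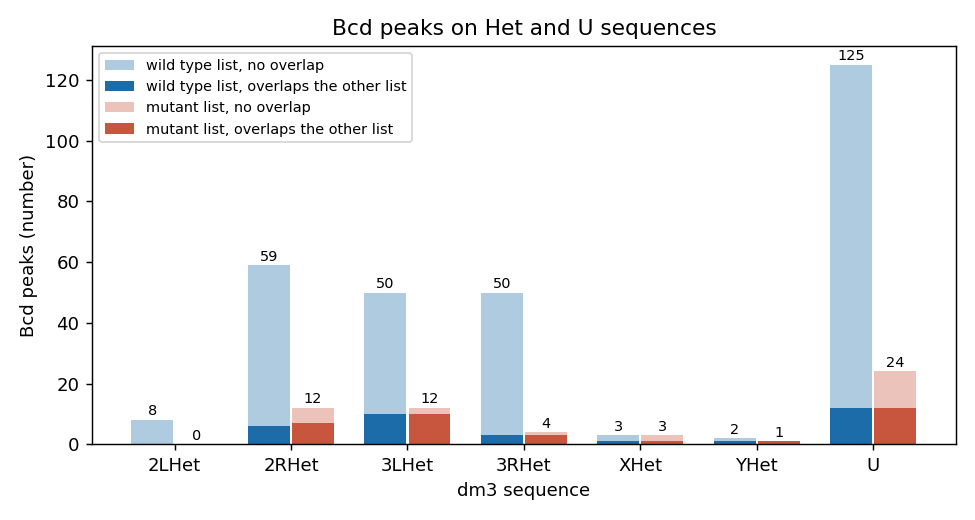
The number of Bcd peaks is plotted for each Het sequence and for U, with the wild-type list in blue and the mutant list in red. The dark part of a bar counts peaks that overlap the other list, and the number above is the whole bar. The 125 wild-type peaks of U and the 59 of 2RHet are mostly pale, since 12 and 6 of them overlap a mutant peak.

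Bcd peaks of the Het sequences were longer than those of U and held about as many tags per kb. The median length in the wild-type list was 2877 bp on Het (interquartile range 1754 to 4650, 172 peaks) and 1875 bp on U (1432 to 2572, 125 peaks), beside 2127 bp on the arms. Among the 6 Het sequences, the wild-type medians ran from 2295 bp on XHet to 3055 bp on 2LHet. The tag density, the ChIP tags in a peak divided by its length, had a wild-type median of 391 tags per kb on Het and 374 on U, beside 456 on the arms. Among the 6 Het sequences the medians lay between 376 on 3RHet and 400.4 on XHet. In the mutant list the median length was 1548 bp on Het and 1217 bp on U, and the median density 121 and 128 tags per kb, beside 137 on the arms. Wild-type densities of Het and U peaks were also more even, with a coefficient of variation over peaks of 15.2%, against 22.5% over arm peaks. The mutant values were 34.2% and 24.1%, the other way round. The ratio of the upper to the lower quartile of density was smaller on Het and U in both lists. It was 1.20 against 1.35 on the arms in wild type and 1.22 against 1.31 in the mutant.

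Fold enrichment, the ratio of ChIP tags to a local input background that the authors' lists give for each peak, was lower on Het and U than on the arms in both lists. The wild-type median was 3.99 on Het (interquartile range 3.59 to 4.62) and 4.12 on U (3.62 to 5.10), beside 5.33 on the arms (4.41 to 6.73). Mutant medians were 2.78 on Het, 3.11 on U and 3.97 on the arms. Uextra medians were 4.90 in wild type and 4.025 in the mutant. Over wild-type sequences the median fold ran from 3.76 on 3RHet to 6.15 on XHet, the latter from 3 peaks. The interquartile ranges of Het, U and the arms overlapped.

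A high tag density did not always come with a high fold. Over the 297 wild-type Het and U peaks, density and fold had a Spearman correlation of 0.33, against 0.64 over arm peaks. Over the 56 mutant peaks it was also 0.33, against 0.64 on the arms. These are correlations over peaks of the same libraries, which share depth and background. The densest wild-type peak, on U from 5684729 to 5688998, had 667 tags per kb but a fold of 3.62. The densest mutant peak, on U from 9691651 to 9692656, had 351 tags per kb, a fold of 2.87 and an FDR of 13.7%.

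**Figure D2:**
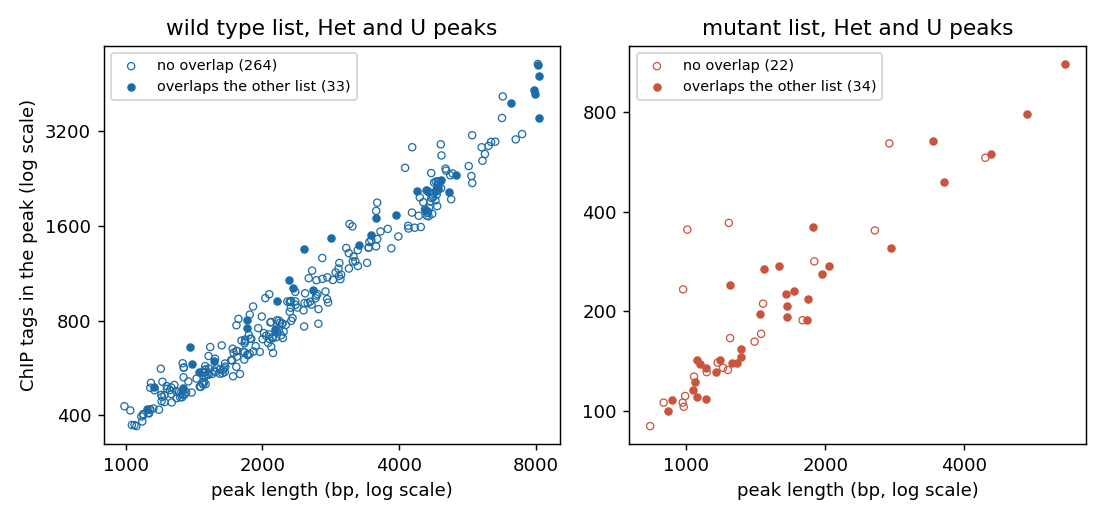
Each point is a Het or U peak, with its length in bp against the ChIP tags inside it, both on log scales and in 1 panel per list. Filled points overlap a peak of the other list (33 in wild type and 34 in the mutant). Wild-type points follow a narrow band, while several open mutant points between about 1000 and 3000 bp lie above theirs.

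By an overlap of at least 1 bp, most wild-type Bcd peaks on Het and U had no mutant partner. By the same limit, most mutant peaks there had a wild-type one. An overlap of at least 1 bp was found for 33 of 297 wild-type peaks, or 11.1% (Wilson 95% interval 8.02 to 15.2), where 39.6% of all wild-type peaks had a partner. The arms share was 45.5%, and the difference from it was −34.3 percentage points (Newcombe 95% interval −37.9 to −29.9). On the mutant side it was 34 of 56, or 60.7% (47.6 to 72.4), where 62.3% of all mutant peaks had a partner. The arms share was 74.4%, and the difference from it was −13.7 points (−26.9 to −1.84), an interval that excluded 0. The mutant Het and U share was 35.7% when 50% of each peak had to overlap and 32.1% when summits had to lie within 200 bp. On Uextra 29.1% of wild-type peaks and 30.9% of mutant peaks had a partner, so a share below the arms was not particular to Het and U. By sequence the wild-type count was 10 of 50 on 3LHet, 6 of 59 on 2RHet, 3 of 50 on 3RHet, 12 of 125 on U, 0 of 8 on 2LHet, 1 of 3 on XHet and 1 of 2 on YHet. The intervals of 3LHet (11.2 to 33.0%) and of 3RHet (2.06 to 16.2%) overlapped, so the order of these sequences is not settled by the counts. Mutant peaks had a partner in 10 of 12 cases on 3LHet, 7 of 12 on 2RHet, 3 of 4 on 3RHet and 12 of 24 on U.

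The wild-type share stayed below that of the arms at every level of the MACS score, which is 10 times the negative log10 of the p-value. At scores of 50 to 100 it was 7 of 142 (4.93%) on Het and U and 30.0% on the arms, a difference of −25.0 percentage points (Newcombe 95% interval −29.0 to −19.3). At 100 to 200 it was 9 of 79 (11.4%) against 47.1%, a difference of −35.7 points (−42.1 to −26.1). At 200 to 500 it was 12 of 57 (21.1%) against 50.5%, a difference of −29.4 points (−38.8 to −16.6). At 500 or more it was 5 of 19 (26.3%) against 63.5%, a difference of −37.2 points (−52.3 to −14.4). Each of these intervals excluded 0, and the median length of Het and U peaks was the longer in each class, from 1682 against 1570 bp to 4845 against 3546 bp.

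For mutant Het and U peaks the gap of −13.7 points to the arms was not detectable within single classes of score. The share was 21 of 39 (53.8%) at scores of 50 to 100, against 57.4% on the arms, with an interval of the difference of −19.2 to 11.4 points. It was 6 of 10 against 79.3% at 100 to 200, with an interval of −48.2 to 4.16 points, and 7 of 7 against 94.5% at 200 to 500, with an interval of −30.0 to 8.24 points. All 3 intervals held 0 and were wide, so a sizeable gap lies within them. The 22 mutant peaks with no partner had folds of 2.13 to 7.0, scores of at most 112 and FDR values of at least 9.96%. The nearest wild-type peak on the same dm3 sequence lay 0.524 to 139.7 kb away, with a median of 10.1 kb, and 3 of the 22 had one within 1 kb.

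**Figure D3:**
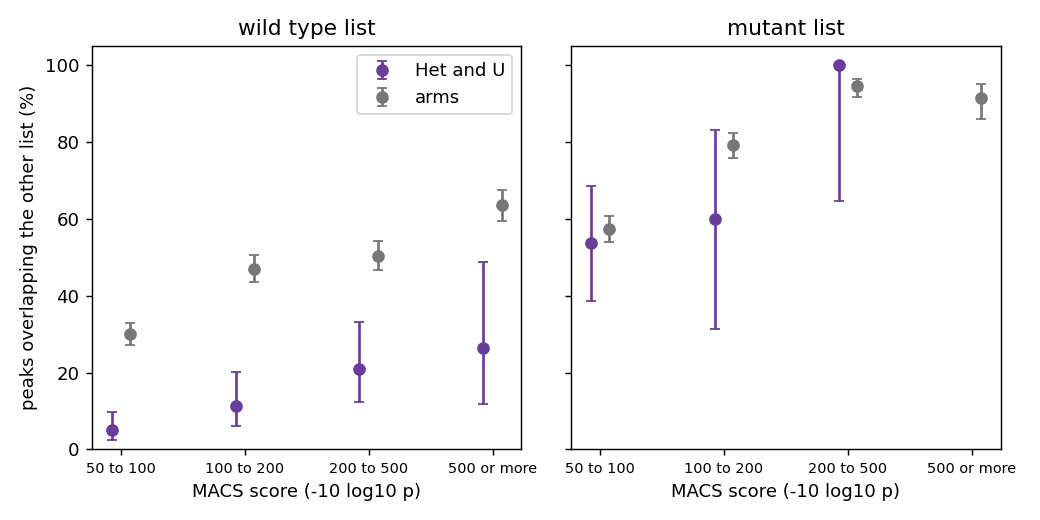
The share of peaks that overlap the other list, in percent, is plotted against classes of the MACS score for Het and U (purple) and the arms (grey), with Wilson 95% intervals. In the wild-type panel Het and U lie below the arms in all 4 classes, from 4.93% against 30.0% to 26.3% against 63.5%. In the mutant panel the intervals overlap in the 3 classes that hold Het and U peaks.

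The 10 wild-type Het and U peaks with the highest fold, 7.44 to 10.04, overlapped a mutant peak in 2 cases, beside 11.1% of all 297. The first lay on U from 2637145 to 2641263, with 2448 tags (exact Poisson 95% interval 2352 to 2547), a score of 1663 and a fold of 10.04. The nearest mutant peak was 332 kb away along U as assembled. On 3RHet, 845351 to 852079 held 3527 tags (3412 to 3645) at a fold of 9.13, with the nearest mutant peak 220.0 kb away. The very start of 3LHet, 3 to 4704, held 2357 tags (2263 to 2454) at a fold of 8.82. On 2RHet, 361399 to 369468 held 5233 tags (5092 to 5377) at a fold of 8.71. These 4 were the wild-type Het and U peaks with a score of at least 1000, and none was shared, whereas 163 of 214 such peaks on the arms were.

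The other members of that group were shorter. Those with a mutant partner lay on U, at 1914028 to 1916496 (fold 8.52) and at 2303020 to 2305846 (7.49). Those without lay on U, starting at 10012393 (fold 8.28), 7548505 (7.82) and 9596007 (7.77), and on 3RHet, starting at 1484140 (7.44). The U peaks starting at 10012393 and 9596007 were alike, with lengths of 1133 and 1137 bp and 490 and 508 tags. On 2LHet, XHet and YHet the highest fold was 7.33 (356066 to 357972), 6.86 (194207 to 197462) and 6.04 (72185 to 75647), in that order.

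Of the 10 mutant Het and U peaks with the highest fold, 4.31 to 9.37, 7 had a wild-type partner, beside 60.7% of all 56. The first, on 2RHet from 822249 to 823490, scored 450.2, with 240 tags (exact Poisson 95% interval 211 to 272) and a fold of 9.37. Its wild-type partner from 822324 to 823439 had a fold of 6.12, a score of 77.2 and 418 tags, and the summits lay 21 bp apart. Of the 34 overlapping pairs, only this one and one on 3LHet had the higher fold in the mutant list. The 3LHet peak, from 618894 to 620773 in the mutant, had a fold of 6.74 there and 6.22 in wild type. The XHet pair had nearly equal folds, 6.42 in the mutant and 6.86 in wild type, and nearly equal lengths of 3427 and 3256 bp.

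The 5 mutant peaks without a partner that had the highest folds all lay on U. The first, from 8609115 to 8610099, had a fold of 7.0, 233 tags (204 to 265) and 237 tags per kb, which was the third highest density of the 56. The next, from 5583144 to 5584380, had a fold of 4.56, 370 tags (333 to 410) and the second highest density, 299 tags per kb, but a score of 53.7. The others started at 7076248, 8147911 and 3005478, with folds of 4.31, 3.70 and 3.63 and 103, 111 and 106 tags. These 3 were alike in length, from 983 to 995 bp. The mutant peaks with the highest fold on the remaining sequences were both shared, on 3RHet at 1708103 to 1709935 (fold 2.78) and on YHet at 72385 to 73298 (3.02).

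Where the lists overlapped on Het and U, the mutant peak was mostly the shorter one and often marked another spot. There were 34 overlapping pairs, since the wild-type peak on 2RHet from 1633747 to 1637671 covered 2 mutant peaks. Over the 32 pairs of single peaks the mutant length was 0.578 times the wild-type length at the median (interquartile range 0.432 to 0.783), against 0.757 over 1187 such pairs on the arms (0.530 to 0.892). The summits lay within 200 bp of each other in 18 of 32 pairs, or 56.3% (Wilson 95% interval 39.3 to 71.8), against 79.9% on the arms (77.6 to 82.1). The median summit distance was 149 bp against 47 bp. Shared wild-type peaks had a median length of 3256 bp on Het and U, against 2339 bp on the arms. Whether length bears on the summit distance was not tested. The mutant fold was the higher in 2 of the 32 pairs and in 10.3% of the arm pairs. Tag density divided by the ChIP tags of the list went the other way, being higher in the mutant in 22 of 32 pairs and in 76.3% of the arm pairs.

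Among the pairs with the highest wild-type fold, 4 of 5 had summits within 30 bp. The pair on U at 1914028 had 1348 wild-type and 275 mutant tags, folds of 8.52 and 4.94, and summits 17 bp apart. The pair on U at 2303020 had 1464 and 268 tags, folds of 7.49 and 4.69, and summits 17 bp apart. The third pair, on 3LHet, set a wild-type peak of 8078 bp from 66872 to 74949 beside a mutant peak of 1643 bp from 73073 to 74715, with folds of 7.36 and 4.23 and summits 675 bp apart. The XHet pair had summits 10 bp apart. The fifth, on 3LHet from 570856 to 572704 in wild type, had folds of 6.29 and 3.93 and summits 29 bp apart.

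**Figure D4:**
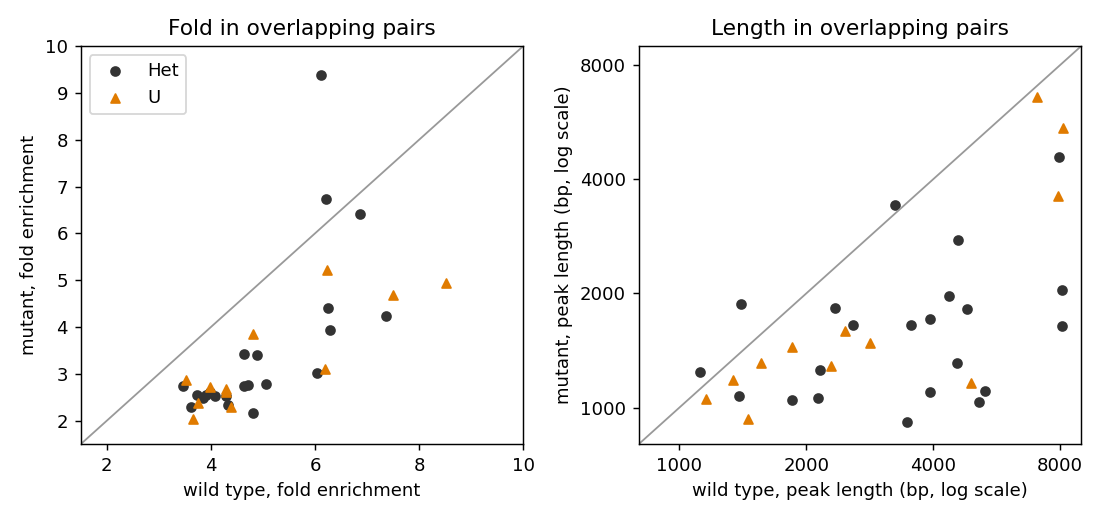
The 34 overlapping pairs are plotted with the wild-type value on the x axis and the mutant value on the y axis, for fold enrichment on the left and peak length in bp, on log scales, on the right. Circles are Het pairs, triangles are U pairs and the line marks equal values. In the fold panel 2 Het pairs lie above the line, and in the length panel most pairs lie below it.

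Lengths of wild-type Het and U peaks piled up between 4500 and 5000 bp. This class of length held 37 of 297 peaks, or 12.5% (Wilson 95% interval 9.17 to 16.7), against 134 of 2827 on the arms, or 4.74% (4.02 to 5.59). The neighbouring classes of 500 bp held 10 and 7 Het and U peaks. The arms had a smaller rise at the same length, from 3.43% in the class below. The 37 were spread over 5 sequences, with 10 on 2RHet, 10 on 3RHet, 7 on 3LHet, 7 on U and 3 on 2LHet. A mutant peak overlapped 4 of the 37, a share close to that of all 297, and 52 of the 134 on the arms. In the mutant list 1 Het and U peak fell in this class, on 2RHet from 2206211 to 2210781.

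In many of these long peaks the summit lay close to one end. It was within 750 bp of an end in 23 of the 37, or 62.2% (46.1 to 75.9), and in 40.3% of the arm peaks of that length (32.4 to 48.8). The 750 bp limit and the class of length were chosen after the values were seen, and the intervals overlap. In the 23 peaks the summit was 430 to 736 bp from the nearer end, by the start in 15 and by the end in 8. A summit near an end was not particular to this length, since it was also found in 13 of 27 Het and U peaks of 3000 to 4000 bp (48.1%), against 80 of 333 on the arms, and in 5 of 10 of 4000 to 4500 bp. From 5000 to 6000 bp it was found in 1 of 11, against 11.8% on the arms. In the 23 peaks, tags ranged from 1718 to 2681 with a median of 2035, and the median fold was 4.07. Of the 23, 1 had a mutant partner. The 54 arm peaks of this kind had a median of 2006 tags and a median fold of 4.41, and 9 of them had a mutant partner.

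**Figure D5:**
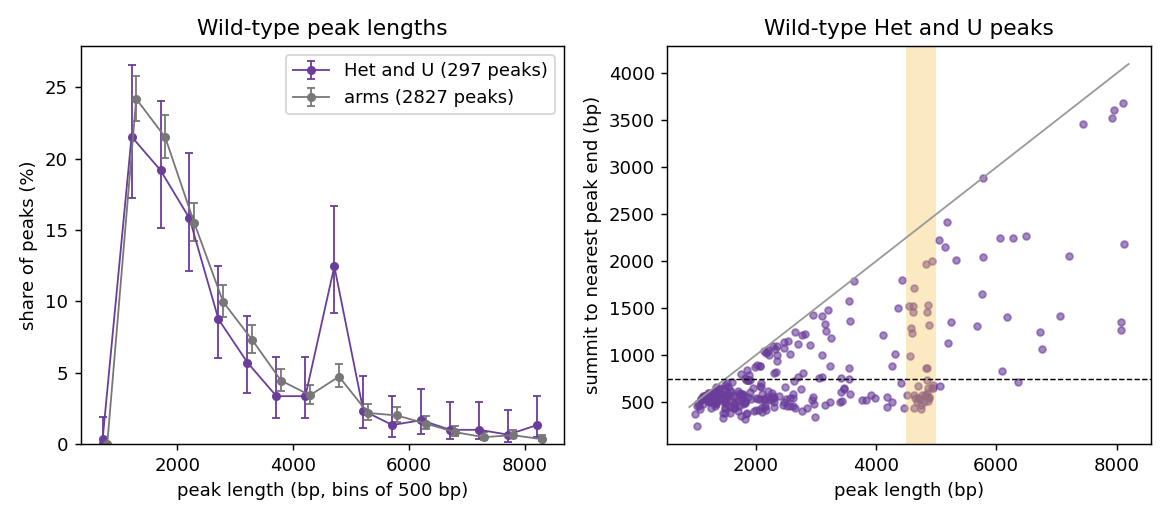
On the left, the share of wild-type peaks in each class of 500 bp of length is plotted in percent with Wilson 95% intervals, for Het and U (purple) and the arms (grey, 24 longer peaks not drawn). On the right, each Het and U peak is plotted by its length and by the distance in bp from its summit to the nearer peak end, with the class of 4500 to 5000 bp shaded, a dashed line at 750 bp and a grey line where the summit is in the middle. The purple line has a separate maximum of 12.5% in the shaded class, the grey line a lower one of 4.74%, and 23 of its 37 points lie below the dashed line.

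Groups of look-alike peaks were common on Het and U, but no more so by count than on the arms. A peak was taken to have a look-alike when another Het or U peak of the same list was within 2% of its length and 5% of its tags. This held for 226 of 297 wild-type peaks, or 76.1% (Wilson 95% interval 70.9 to 80.6), where 81.0% of wild-type peaks of 2L, 2R, 3L, 3R and X had a look-alike on their own arm (77.8 to 83.7% by arm). In the mutant list it held for 16 of 56, or 28.6% (18.4 to 41.5), where 77.9% of arm peaks had one. The share grows with the number of peaks that can match, and those 5 arms held 472 to 694 wild-type and 310 to 488 mutant peaks each. Linking all matches gave 39 wild-type groups of 2 to 33 peaks, 18 of them pairs, and 7 mutant groups of 2 or 3. Single arms gave 67 to 80 wild-type groups, the largest on each arm holding 34 to 181 peaks. In the mutant list they gave 38 to 46 groups, the largest on each holding 66 to 233 peaks.

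Counted per possible pair, which does not depend on the number of peaks, look-alikes were more frequent among wild-type Het and U peaks. They made up 390 of 43956 pairs, or 0.887%, against 0.391 to 0.635% on the arms and 1.33% on Uextra. Pairs alike in length were about as frequent as on the arms, 2.46% against 2.31 to 3.04%. Of the pairs alike in length, 36.01% were also alike in tags on Het and U, against 16.9 to 20.9% on the arms. On Uextra it was 33.7%, so this was not particular to Het and U. Pairs share peaks, so these shares are descriptions without a test. Among mutant Het and U peaks 9 of 1540 pairs were look-alikes, or 0.584%, against 0.767 to 1.22% on the arms and 0.405% on Uextra. Of the mutant pairs alike in length, 17.6% were also alike in tags, against 20.7 to 27.1% on the arms and 11.6% on Uextra.

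The place of the summit inside the peak, which the rule did not use, matched in fewer of the look-alike pairs on Het and U than on the arms. It was within 50 bp, counted from the same or from the opposite end, in 121 of 390 wild-type pairs (31.0%) and in 49.2% of 14014 look-alike pairs from different arms. A short peak has little room for its summit, and under 1500 bp the shares were 50.9% and 75.3%. From 1500 to 3000 bp they were 22.7 and 29.9%, and from 3000 to 4500 bp 6.67 and 11.8%. Between 4500 and 5000 bp both rose again, to 29 of 109 pairs (26.6%) on Het and U and 24.8% on the arms. At 5000 bp or more it was 0 of 9 pairs on Het and U and 17.7% on the arms. A match in length, tags and summit was found for 119 wild-type peaks (40.1%) and 9 mutant peaks (16.1%). Within single arms, which hold more peaks that can match, it was found for 42.7 to 54.0% of wild-type and 54.7 to 65.0% of mutant peaks. Whether any of these peaks are copies of 1 repeat was not tested.

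The largest wild-type group, 33 peaks, was that of the long peaks. It spanned 4554 to 4944 bp and 1718 to 2237 tags, with folds of 2.89 to 6.29, on 2LHet, 2RHet, 3LHet, 3RHet and U. Since members were linked through others, its ends differ by more than 2% in length. Within it, 13 peaks from 5 sequences were linked through 22 pairs that also matched in summit, so not all 13 match each other. Of these 13, 1 overlapped a mutant peak, beside 11.1% of all 297 wild-type Het and U peaks. Their summits lay 430 to 655 bp from the nearer end, with 1928 to 2237 tags and folds of 3.89 to 4.45. An example is the peak on 2LHet from 144470 to 149239, with 2197 tags and its summit at base 4188. The peak on 2RHet from 2802957 to 2807766 had 2214 tags and its summit at base 4228, and the folds were 4.34 and 4.32. A further 6 peaks of the group, of 4629 to 4727 bp, were linked in the same way through 5 matching pairs, with 1718 to 1965 tags and summits 442 to 579 bp from an end.

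The next groups held shorter peaks, with median scores of 67.9 to 75.03 against 321 in the largest group, while median folds of 3.48 to 5.46 lay on both sides of its 4.05. A group of 28 peaks spanned 1455 to 1657 bp, 493 to 585 tags and folds of 3.31 to 5.61, and none of them was shared. Their scores were 50.2 to 97.5, and only 7 of 142 wild-type Het and U peaks (4.93%) scoring 50 to 100 were shared. A group of 23 spanned 2001 to 2252 bp, 632 to 802 tags and scores of 50.5 to 134.6. A group of 22 spanned 1198 to 1359 bp, 441 to 500 tags and scores of 52.1 to 119.4. Each of these groups held 1 shared peak, beside 11.1% of all 297 wild-type Het and U peaks. The fifth group, 10 peaks of 1083 to 1151 bp with 383 to 421 tags and folds of 4.77 to 6.46, included the wild-type partner of the strongest mutant peak of 2RHet. In the mutant list the groups of 3 lay on a single sequence each. On U it was the 3 unshared peaks of 983 to 995 bp given above. On 3LHet it was the peaks starting at 571118, 715039 and 1962784, of 1037 to 1045 bp with 116 to 127 tags, whose summits lay at bases 496 to 511 and of which 2 were shared.

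Some of the longest wild-type peaks came in pairs on different sequences, alike in length and tags, and these were picked after their values were seen. In neither pair did the summits match within 50 bp. The peak of 8070 bp on 2RHet from 361399 to 369468 had 5233 tags and its summit at base 6711. The peak of 8078 bp on 3LHet from 66872 to 74949 had 5213 tags and its summit at base 6810. Their folds were 8.71 and 7.36, and only the 3LHet one overlapped a mutant peak. Likewise, the peak of 7923 bp on U from 2246225 to 2254147 had 4338 tags, a score of 95.6 and a fold of 3.65. The peak of 7952 bp on 2RHet from 2204488 to 2212439 had 4200 tags, a score of 95.2 and a fold of 3.62. Both of these overlapped a mutant peak, of 3611 bp with a fold of 2.03 on U and of 4571 bp with a fold of 2.30 on 2RHet.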

How the data were processed

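The submitters' processing notes name Bowtie2, MACS 1.4.2 and dm3. Per the file headers, each list came from 1 ChIP and 1 control file with a p cutoff of 1e-05, a tag size of 50 bp and at most 1 tag kept per position, the larger dataset being scaled towards the smaller. The sources used here do not say how replicates were joined. The deposited tag count of a peak is a whole number, not normalized. The deposited score is 10 times the negative log10 of the p-value, the deposited fold enrichment is a ratio to local background, and the deposited FDR is in percent. Score and fold are the authors' values of each peak.

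Members and lists were chosen with earlier results of these data known. Positions are 1-based. Shares have Wilson and differences Newcombe 95% intervals, and tag counts exact Poisson ones, all for counting error only. Look-alike tolerances are relative to the larger value. The peaks named are the highest fold per sequence, the 10 highest folds per list, the 5 largest look-alike groups, the 5 highest unshared mutant folds and the 5 highest shared wild-type folds; others are said to be picked by value. The overlap and look-alike code was tested on simulated data. Values came from Python 3.11.15 with pandas 2.3.3, numpy 2.4.6 and scipy 1.17.1, and plots from matplotlib 3.10.9.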

Additional observations from a re-analysis of the deposited data

How the results depend on the processing

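The limits on the FDR for shares and the removal of look-alikes were chosen after seeing the data. The wild-type share with a mutant partner, 11.1%, became 6.73% when 50% of each peak had to overlap, 6.06% when summits had to lie within 200 bp, 16.8% among peaks scoring 100 or more and 24.6% among peaks with an FDR up to 5%. The mutant share, 60.7%, became 35.7%, 32.1%, 76.5% and, for 2 peaks, 100% in the same order. Het alone, U alone and removal of look-alikes in length, tags and summit left both shares within their intervals. Of the peaks, 155 in wild type and 17 in the mutant scored 100 or more, while 57 and 2 had an FDR up to 5%. The share with a look-alike, 76.1% in wild type and 28.6% in the mutant, became 42.4% and 0% with limits of 1% in length and 2.5% in tags, and 96.6% and 69.6% with 5% and 10%. It was 45.8% and 14.3% within the same sequence, 98.0% and 92.9% over the whole list, and 40.1% and 16.1% with the summit added, as fewer or more peaks could match. The matching summit share of 31.0% became 16.7% within 20 bp, 47.2% within 100 bp and 19.0% in the same orientation only. For the shifts by score or FDR the cause was not tested. No paired analysis was possible because each genotype has a single list without values per replicate, which also means that no replicate could be left out. At 10060479 tags, a site missing from the mutant list may lie below its detection limit.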

Other observations

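Het and U peaks lay farther apart on their dm3 sequences than arm peaks. Since U strings together pieces with no known place, gaps on U are distances along the assembly only. The median gap between neighbouring peaks was 39.2 kb in the wild-type list and 165 kb in the mutant list, against 17.0 and 24.2 kb on the arms. On Het without U it was 36.6 and 94.3 kb. A neighbour within 5 kb was found for 84 of 297 wild-type peaks (28.3%, Wilson 95% interval 23.5 to 33.7), against 48.3% on the arms, and for 9 of 56 mutant peaks. Those 9 all lay on Het, since none of the 24 mutant peaks of U had a neighbour that near.

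Look-alikes of the wild-type Het and U peaks were also found elsewhere. With matches in length, tags, summit place and fold within 10%, 137 of 297 (46.1%) had a counterpart on the arms and 69 (23.2%) on Uextra. Of the 2827 arm peaks, 1554 (55.0%) had such a counterpart on the arms and 643 (22.7%) on Uextra. A counterpart on Het was found for 15.5% of the Het and U peaks and 10.3% of the arm peaks, and one on U for 12.8% and 7.96%. In wild type the shares were thus lower for Het and U peaks on the arms and nearly equal on Uextra. They were higher on Het and U themselves, all without a test. In the mutant list a counterpart on Het was found for 1 of 56 Het and U peaks (1.79%), against 4.81% of arm peaks. One on U was found for 3 of 56 (5.36%) against 2.35%. One on the arms was found for 50% against 65.8%, and one on Uextra for 25% against 24.8%.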
